A study of Mus musculus with 20 samples.

Results

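Genes measured in both microglia and astrocyte libraries were followed through fluid percussion injury (FPI). The aim was to see where the cell types responded alike, in opposite directions, or on one side only. A gene was taken when its mean level was at least 5 CPM, the count of a gene scaled to a fixed total per library, in the 5 Sham MG libraries and in the 5 Sham Astro libraries alike. The rule was met by 8463 of the 39017 genes in the table. All 8463 passed the filter on low counts, which left 15077 genes for testing. The level minimum was set so that RNA carried over from the other cell type would be small against the level of the gene itself. It does not secure this for genes far higher in the other cell type, and 6 of 10 astrocyte markers met it. Among these, Gja1 had a median of 13.4 CPM in Sham MG and 2622 CPM in Sham Astro. How much of such a level was carried RNA was not tested. The minimum used the sham levels, so expression of these genes in both cell types is not a result.

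The mice were adult males of strain C57BL/6 and were 3 to 4 months old. Lateral FPI sends a short pulse of fluid against the exposed dura. Sham mice had the same craniectomy, anesthesia and connection to the device without the pulse. Both cell types were sorted from the ipsilateral forebrain 7 days later, microglia by CD11b and CD45 and astrocytes by ACSA-2, an antibody to a protein of the astrocyte surface. The groups were Sham MG, FPI MG, Sham Astro and FPI Astro, with 5 libraries each. FPI Astro 2 and 5 carry the same number in their library names, so FPI Astro may hold fewer animals than libraries. A single time after injury was sampled, and the whole injured side was pooled over regions.

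Microglia are the resident macrophages of the brain, and astrocytes supply neurons with lipids and metabolites, clear transmitters and seal scars. Both carry the receptor for type I interferon, which acts through a complex that holds STAT2 and IRF9. This complex binds an element of the promoter called the interferon-stimulated response element (ISRE) and switches on antiviral and antigen presentation genes. Microglia near damage also take up debris, lipids and dying cells, and a program of lipid handling, lysosomal and receptor genes known as disease-associated microglia (DAM) is turned on in that state.

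Total counts ran from 5623349 to 13110857 per library, and 86.8% to 90.0% of them fell on the 8463 genes. The sorted cells carried their own defining markers. The summed level of 10 microglial markers was 18445 to 28943 CPM in microglia and 30.3 to 171 CPM in astrocytes. That of 10 astrocyte markers was 10242 to 31557 CPM in astrocytes and 239.6 to 602 CPM in microglia. Taking the median over these markers, microglial RNA made up 0.0399% of the Sham Astro and 0.370% of the FPI Astro libraries on average, with the highest value, 0.603%, in FPI Astro 5. Astrocyte RNA made up 0.738% of the Sham MG and 1.58% of the FPI MG libraries, with 2.34% and 2.49% in FPI MG 1 and 2. Both mean shares were thus higher after injury. FPI MG 4 and 5, at 0.888% and 0.994%, lay within the Sham MG range of 0.569% to 1.16%. The astrocyte sort also held RNA of other cells. The summed markers of oligodendrocytes ranged from 1665 to 17852 CPM in Sham Astro and from 3239 to 11251 CPM in FPI Astro, and the summed markers of endothelium and pericytes ranged from 265 to 4147 CPM over the astrocyte libraries. Markers of oligodendrocyte precursors summed to 1371 CPM in FPI Astro 5 and to 289 to 835 CPM in the other astrocyte libraries. In microglia, the summed markers of monocytes and border macrophages were 143 to 437 CPM in replicates 1 to 3 and 20.8 to 64.6 CPM in replicates 4 and 5, whose library names follow another scheme. In sorted bulk RNA, fewer cells of a type and less RNA per cell cannot be told apart. FPI Astro 5 has a library name that ends as those of microglia do and repeats the number of FPI Astro 2, and its title was followed here. The levels of its microglial and astrocyte markers, 171 and 15432 CPM in sum, were those of an astrocyte library. In the library names 3 numbers occur in both cell types. Whether these mark the same animals is not given, and the joint fit took all 20 libraries as independent.

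In the sham libraries the 8463 genes had a median level of 33.3 CPM in microglia and 31.0 CPM in astrocytes. The sham means differed by less than 2-fold for 5690 of them and by less than 4-fold for 7436, while 549 were at least 4-fold higher in microglia and 478 at least 4-fold higher in astrocytes. In GENCODE M21, 8245 were protein coding, 175 were of another kind and 43 had no entry. Just inside the minimum lay Mblac2 (5.002 CPM in Sham MG), Thap1 (5.003 CPM in Sham Astro) and Gatsl3 (5.005 CPM in Sham MG), and just outside it Dusp8 (4.995), Scg3 (4.986) and Zfp946 (4.986), each by its Sham MG level.

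A joint fit of the 20 libraries gave the effect of FPI in microglia, the effect in astrocytes and the difference between these effects, each with its error. Calls needed an adjusted p under 0.1, adjusted over all 15077 genes, and a log2 fold change beyond ±0.6. Errors of log2 values are standard errors. More of the genes were called in microglia than in astrocytes. In microglia 56 were called, 52 up and 4 down, against 0.803% of all genes tested. In astrocytes 3 were called, all up, against 0.352% of all genes tested. The difference itself was called for 1 gene, Axl, that is for 0.0118% of the 8463 against 0.199% of all genes tested. Without FPI MG 3, 145 genes were called in microglia and 5 for the difference. The 8463 genes thus held a smaller share of called differences than the background. Of the 30 genes with a called difference among all tested, 22 were at 5 CPM or more in Sham MG only, 6 in Sham Astro only and 1 in neither. Most were thus below the level minimum in sham libraries of 1 cell type. The difference, microglia minus astrocytes, was below 0 for 25 of the 30 and above 0 for 5. A value below 0 can also come from a fall in microglia, as for Fmo1, at -7.30 in microglia and -0.03 in astrocytes. The 25 included the microglial markers Cx3cr1, C1qa and Itgam, at 0.763, 0.346 and 0.491 CPM in Sham Astro. The part of carried microglial RNA in these background calls was not tested. The median standard error of the difference was 0.31 over the 8463 genes. The 95% interval of the difference lay within ±1 on the log2 scale for 5215 genes (61.6%) and within ±0.6 for 1268 (14.98%). It lay wholly above 0.6 or below -0.6 for 9, and for the remaining genes it crossed at least 1 of these bounds.

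**Figure D1:**
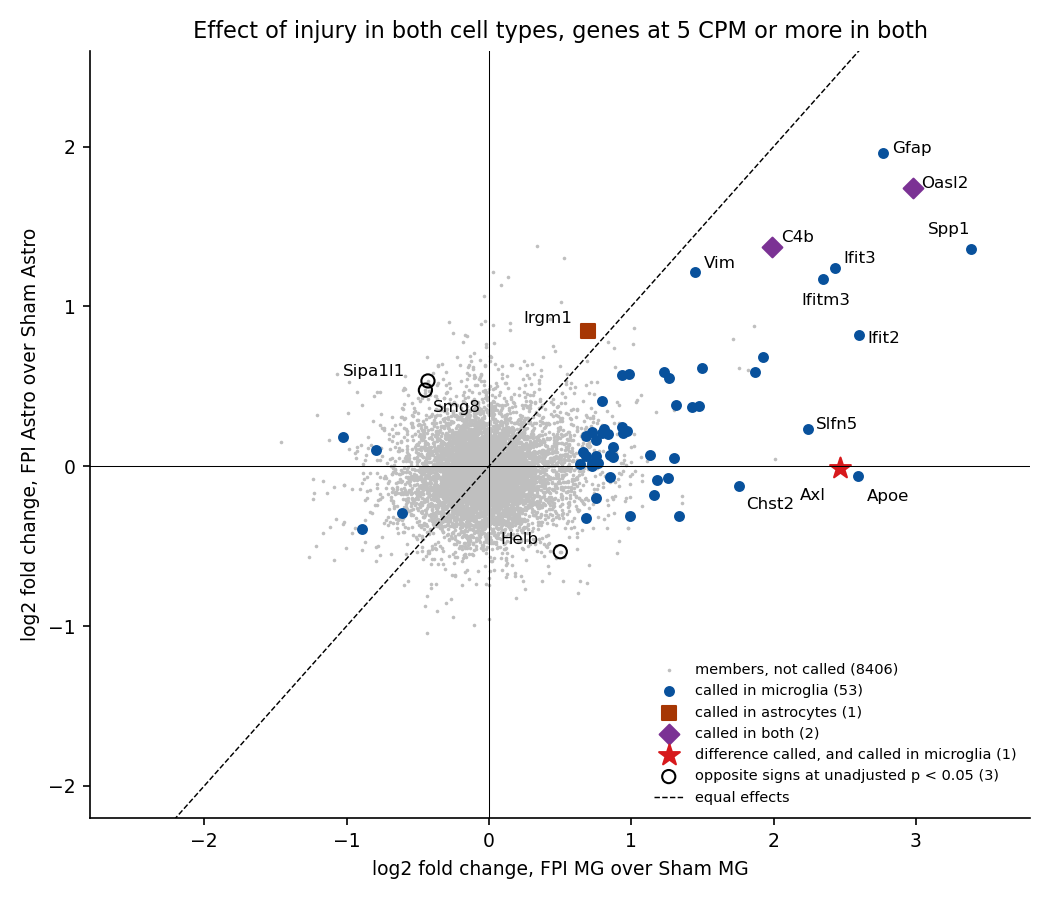
Effect of FPI in microglia (x axis) against its effect in astrocytes (y axis), both as log2 fold change over sham, for the 8463 genes at 5 CPM or more in both sham groups. Coloured marks are the called genes and the dashed line marks equal effects. All called genes but 4 lie to the right of 0, with Axl, Apoe and Chst2 near 0 on the astrocyte axis and Oasl2, C4b, Gfap and Vim high on both.

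At an unadjusted p below 0.05, 350 of the 8463 genes differed, against 1058 of all 15077 genes tested (7.02%). The share among the 8463 was thus the smaller, and it was also smaller than the threshold of 0.05 itself. Of the 350, 229 had the higher estimate in microglia and 121 the higher in astrocytes. Among the 56 genes called in microglia, the astrocyte estimates were mostly smaller and of the same sign. For 42 of them the astrocyte estimate had the same sign, and for 13 it also had an unadjusted p below 0.05. For 45 the difference had an unadjusted p below 0.05, in each case with the larger change in microglia, and for the other 11 its interval held 0. Among the 52 that rose, the median effect was 1.06 in microglia and 0.20 in astrocytes. The 5 FPI MG libraries lay outside the range of the 5 Sham MG libraries for 49 of the 56, against 2.89% of all genes tested. For 45 of the 52 that rose they lay above it, against 1.8% of all genes tested. The FPI Astro libraries lay outside the range of the Sham Astro libraries for 5 of the 56, against 0.73%, and above it for the same 5, against 0.478%. These counts describe genes chosen by the microglia test and carry no test of their own.

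One gene met the terms for a one-sided response, which were a called difference, a call in 1 cell type and an unadjusted p of at least 0.05 in the other, against 0.186% of all genes tested. It was Axl (ENSMUSG00000002602, chromosome 7 from 25757273 to 25788705, minus strand of GRCm38), a receptor tyrosine kinase of the TAM family that binds Gas6 on dying cells and dampens innate signalling. Its level was 52.02, 23.5, 47.98, 49.1 and 55.6 CPM in the Sham MG libraries and 366, 241, 248, 179 and 225 CPM in the FPI MG libraries. In astrocytes it was 288, 264, 276, 199 and 347 CPM in the sham and 195, 234, 254, 267 and 417 CPM in the FPI libraries. Every injured microglia library exceeded every sham one, while the astrocyte groups overlapped, and 4 of the 5 injured microglia libraries lay within the range of the astrocyte libraries. The effect was 2.47 ± 0.25 in microglia (edgeR quasi-likelihood test, adjusted p = 4.11e-05) and -0.01 ± 0.24 in astrocytes, with a 95% interval of -0.50 to 0.48. The difference was 2.48 ± 0.34 (interval 1.77 to 3.18, adjusted p = 0.00286). Carried astrocyte RNA was put at 4.33 CPM of Axl in FPI MG, where the mean was 252 ± 69.1 CPM (SD, n = 5). Its part in the rise of Axl was not tested. The difference was called in each of the 20 fits that left out 1 library, between 2.28 and 2.67, and in each of 15 other fits that give a difference, between 2.07 and 2.79. Sham astrocytes had over 4-fold more Axl than sham microglia, so that a limit of 4-fold on the sham means left out the gene and with it the only called difference.

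**Figure D2:**
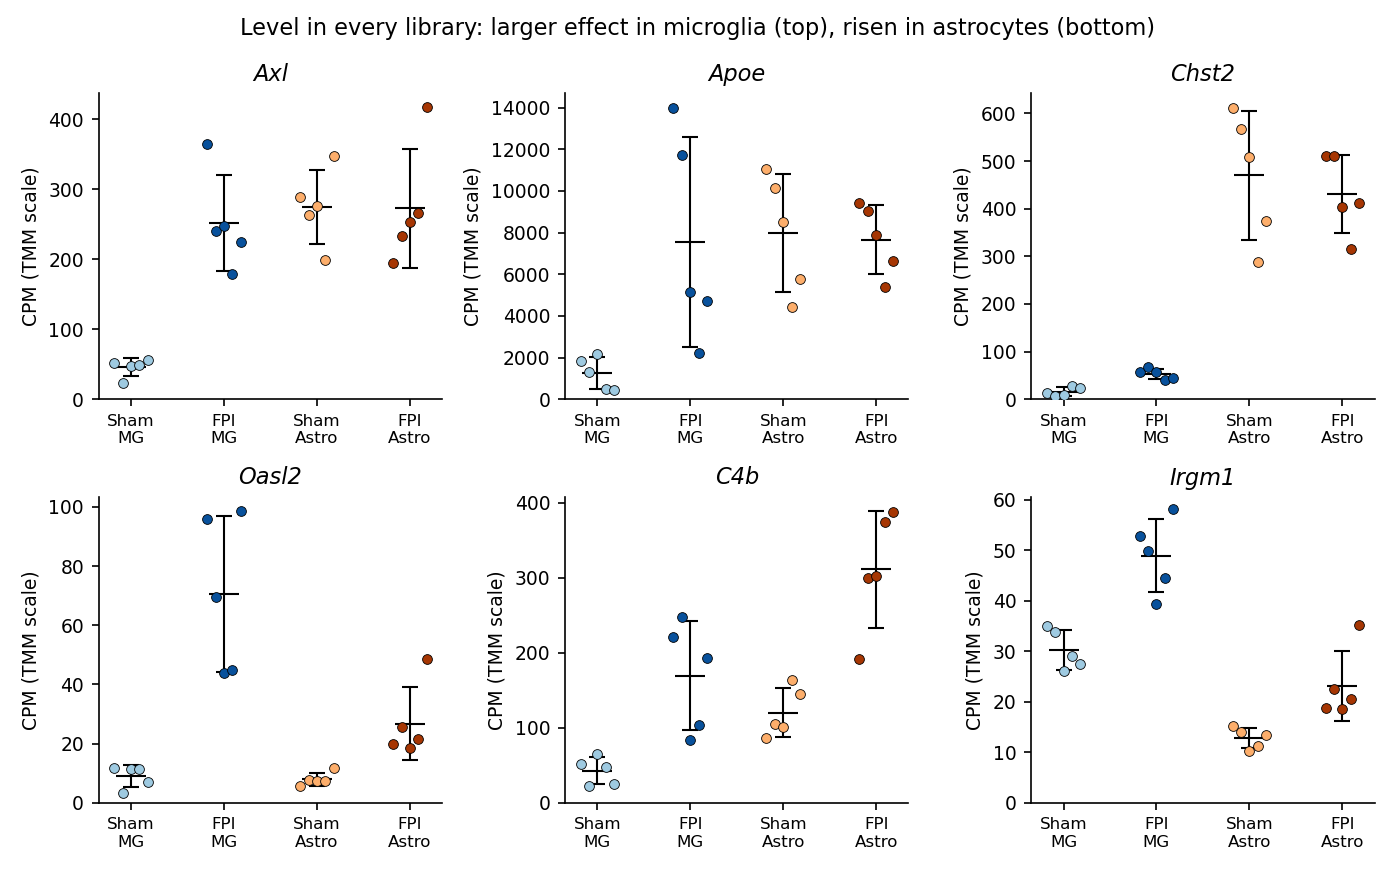
Level of 6 genes in every library, in CPM on the TMM scale (y axes start at 0), by group. Points are libraries, and bars give the mean and SD of 5. Axl, Apoe and Chst2 rose in FPI MG with overlapping astrocyte groups, while Oasl2, C4b and Irgm1 were above the sham range in both cell types.

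The other genes nearest to a called difference with the larger effect in microglia did not pass the threshold on the difference in the joint edgeR fit. Of these 9, 8 were called in microglia. The difference of each of the 9 was called by DESeq2, with adjusted p between 0.0098 and 0.0754, so these calls depended on the method. Chst2, a sulfotransferase of carbohydrate chains, had 12.5, 7.601, 8.16, 28.2 and 23.4 CPM in Sham MG and 57.7, 67.7, 57.01, 40.4 and 44.5 CPM in FPI MG, without overlap. It was far higher in astrocytes, at 469.7 ± 135 CPM in Sham Astro and 430.4 ± 82.3 CPM in FPI Astro. The difference was 1.88 ± 0.43 (adjusted p = 0.112, edgeR). Carried astrocyte RNA, from the median share over the markers, was estimated at 3.46 CPM in Sham MG and 6.81 CPM in FPI MG. Its part in the rise of Chst2 was not tested. Sham MG replicates 4 and 5 were the highest of the sham group, and the difference passed with a term for the naming scheme of these replicates (2.03, adjusted p = 0.0687) and without its libraries (2.81, adjusted p = 0.00998).

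Apoe encodes the main lipoprotein of the brain, made mostly by astrocytes, and is a DAM gene. It had 1838, 1293, 2159, 499 and 468 CPM in Sham MG and 13997, 11716, 5136, 2219.9 and 4726 CPM in FPI MG. The groups did not overlap, though by a narrow gap between 2159 and 2219.9 CPM, and replicates 4 and 5 had the lowest sham levels. Astrocytes had 11045, 10119, 8516, 4448 and 5773 CPM in sham and 9419, 9019, 7866, 5392 and 6626 CPM in injured mice, with wide overlap. The effect was 2.59 ± 0.48 in microglia (adjusted p = 0.0113, edgeR) and -0.06 ± 0.45 in astrocytes, and the difference was 2.65 ± 0.65 (interval 1.30 to 4.00, adjusted p = 0.166). With a term for the naming scheme of microglia replicates 4 and 5, it was 2.72 and passed (adjusted p = 0.00831), and without those libraries it was 2.59 (adjusted p = 0.0799). Carried astrocyte RNA was put at 121 CPM in FPI MG.

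Ifit2, an interferon-induced inhibitor of viral translation, rose in microglia from 12.4, 9.72, 23.9, 20.7 and 17.02 CPM to 139, 91.6, 61.7, 59.8 and 155 CPM. Its astrocyte levels were 12.3, 10.7, 12.6, 23.1 and 17.5 CPM in sham and 32.6, 19.8, 23.4, 24.02 and 35.1 CPM in FPI mice, where the groups overlapped. The difference was 1.78 ± 0.42 (interval 0.90 to 2.66, adjusted p = 0.144, edgeR). The effect thus pointed up in both cell types, with 2.601 ± 0.31 in microglia and 0.82 ± 0.30 in astrocytes. P2rx4, an ATP-gated channel of activated microglia, rose in microglia by 0.68 ± 0.17 (adjusted p = 0.0907), and its astrocyte estimate was -0.32 ± 0.17. Its FPI MG libraries held 74.4, 78.6, 55.1, 67.05 and 43.7 CPM, all above the 35.4 to 41.8 CPM of Sham MG. The remaining 5 were Cpq, Anxa5, Npm1, Npc2 and Cox4i1, with differences between 0.75 and 1.30 and adjusted p between 0.182 and 0.215. They encode a lysosomal peptidase, a binder of phosphatidylserine, a nucleolar chaperone of ribosome assembly, a lysosomal cholesterol carrier and a subunit of cytochrome c oxidase. Each was called higher in microglia except Npc2, whose estimate of 0.51 ± 0.14 was above 0 but not called. Its only injured microglia library within the sham range of 147 to 176 CPM was FPI MG 3, at 165 CPM. The astrocyte estimates of the 5 genes lay between -0.31 and 0.07.

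No gene had a called difference with the higher estimate in astrocytes in the joint edgeR fit, against 0.166% of all genes tested. The 10 nearest were Mmp15, Sipa1l1, Cebpd, Lzts3, Zfp598, Kbtbd2, Zfp324, Armcx2, Mrm1 and Zcchc14, with differences between -1.61 and -0.60 and adjusted p between 0.204 and 0.443 (edgeR). For 8 of the 10 the microglia estimate, below 0, was further from 0 than the astrocyte one. Lzts3, a scaffold protein described at synapses, fell in microglia from 10.6, 10.4, 10.5, 9.07 and 9.08 CPM to 3.497, 3.86, 8.901, 4.46 and 3.58 CPM, with a log2 fold change of -1.03 ± 0.26 (adjusted p = 0.0913). This call held in 6 of the 20 fits without 1 library and in 10 of 16 other fits. FPI MG 3 stood near the sham range and the other 4 well below it. Zfp324, a zinc finger gene, fell from 33.7, 25.3, 26.2, 26.3 and 31.01 CPM to 17.02, 15.6, 15.4, 15.1 and 19.2 CPM without overlap (-0.79 ± 0.20, adjusted p = 0.0913). That call held in 3 of the 20 fits without 1 library and in 9 of 16 other fits. Its astrocyte levels overlapped, at 14.9 ± 4.44 and 16.04 ± 2.82 CPM. Sipa1l1 and Cebpd were the exceptions. Cebpd, a transcription factor of the acute-phase response, had 10.5, 15.2, 16.6, 7.38 and 14.6 CPM in Sham Astro and 14.3, 20.1, 27.2, 23.3 and 35.7 CPM in FPI Astro, an estimate of 0.90 ± 0.25 that did not pass (adjusted p = 0.199), against -0.28 ± 0.24 in microglia. Mmp15, a membrane metalloproteinase, stood at 7.86 ± 2.15 CPM in Sham MG and 3.91 ± 1.37 CPM in FPI MG, and at 54.2 ± 15.6 and 68.4 ± 15.6 CPM in astrocytes (SD, n = 5 each). DESeq2 called the difference for 5 of the 10, Mmp15, Sipa1l1, Lzts3, Zfp598 and Kbtbd2, with adjusted p between 0.0408 and 0.09504. In edgeR it was called for Lzts3 without FPI MG 3 and for Mmp15 without Sham Astro 5. Without the astrocyte libraries that share a number with microglia, 7 genes were called in this direction, none of them among the 10.

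Both cell types raised Oasl2 and C4b, the 2 genes called in each with the same sign, against 0.0332% of all genes tested. Oasl2 is an interferon-induced relative of the oligoadenylate synthetases (ENSMUSG00000029561, chromosome 5 from 114896936 to 114912234, plus strand). It had 11.9, 3.22, 11.4, 11.4 and 6.997 CPM in Sham MG and 95.9, 69.5, 44.02, 44.7 and 98.6 CPM in FPI MG. In astrocytes it had 5.83, 7.83, 7.302, 7.27 and 11.6 CPM in sham and 19.8, 25.8, 18.4, 21.4 and 48.5 CPM in FPI mice. Neither pair of groups overlapped, and FPI Astro 5 was the highest astrocyte library. The effect was 2.98 ± 0.36 in microglia (adjusted p = 0.000194, edgeR) and 1.74 ± 0.35 in astrocytes (adjusted p = 0.0294), and the difference was 1.23 ± 0.48 (interval 0.23 to 2.24, adjusted p = 0.592). The carried microglial RNA in FPI Astro was put at 0.261 CPM.

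C4b, the precursor of complement component C4 (ENSMUSG00000073418, chromosome 17 from 34728380 to 34743882, minus strand), had 51.7, 23.02, 65.4, 47.8 and 25.5 CPM in Sham MG and 221, 248, 83.4, 104 and 192 CPM in FPI MG. In astrocytes it had 86.97, 105, 102, 164 and 145 CPM in sham and 192, 299.9, 302, 374 and 388 CPM in FPI mice. Both pairs of groups were separate. The effects were 1.99 ± 0.32 (adjusted p = 0.00384, edgeR) and 1.37 ± 0.32 (adjusted p = 0.0884), and the interval of their difference, -0.30 to 1.54, held 0. Irgm1, an interferon-inducible GTPase of membrane defense, was the third gene called in astrocytes. Its levels were 15.2, 14.1, 10.3, 11.3 and 13.4 CPM in Sham Astro and 18.8, 22.5, 18.7, 20.6 and 35.3 CPM in FPI Astro, an effect of 0.85 ± 0.19 (adjusted p = 0.0672). In microglia it went from 34.9, 33.8, 26.1, 29.1 and 27.4 CPM to 52.9, 49.8, 39.3, 44.6 and 58.2 CPM, again without overlap, and narrowly missed the threshold (0.69 ± 0.18, adjusted p = 0.112).

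These astrocyte calls rested in part on 1 library. FPI Astro 5 was the highest FPI Astro library for 10 of the 12 genes nearest to a shared response, and it also held the highest share of microglial RNA and the highest summed precursor and pericyte markers. Without it, the astrocyte effect was 1.44 ± 0.34 for Oasl2 (adjusted p = 0.131, edgeR), 1.30 ± 0.33 for C4b (adjusted p = 0.239) and 0.67 ± 0.17 for Irgm1 (adjusted p = 0.239), so no shared gene was called without this library. Of the 12, 11 kept an unadjusted p below 0.05 without it. The part of mixed cells in these effects was not tested. Leaving out Sham Astro 1 likewise ended the astrocyte call of Oasl2. C4b kept its astrocyte call in 11 of the 20 fits without 1 library. Over 16 other fits, Oasl2 kept its astrocyte call in 13 and C4b in 9, and both lost it with only the 8463 genes fitted, with each cell type fitted alone and in limma-voom.

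The 12 were chosen by the larger of their 2 p values, and Stat2, Ifit3, Gfap, Vim, Rnf213, Ddx58, Tap1 and H2-T22 were also among them. Each of these 8 was estimated higher in both cell types, and the intervals of the difference held 0 for all but Ifit3 and Rnf213, which were larger in microglia. Stat2, the interferon-specific subunit of the transcription complex, rose in microglia from 33.6, 37.7, 39.4, 35.4 and 46.7 CPM to 87.4, 72.2, 86.2, 67.7 and 66.5 CPM (0.98 ± 0.14, adjusted p = 0.0013, edgeR). In astrocytes it had 18.7, 22.96, 20.2, 26.7 and 20.3 CPM in sham and 36.6, 28.9, 32.6, 29.4 and 34.9 CPM in FPI mice. No library overlapped there either, though the effect of 0.57 ± 0.14 was not called (adjusted p = 0.133). Ifit3, a partner of the Ifit2 family, went from 15.2, 6.797, 8.84, 16.5 and 14.2 to 82.3, 73.3, 31.4, 52.1 and 91.95 CPM in microglia and from 10.2, 20.96, 21.7, 11.99 and 14.9 to 35.5, 35.1, 30.4, 23.4 and 64.8 CPM in astrocytes, with effects of 2.43 ± 0.33 and 1.24 ± 0.32.

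Gfap and Vim encode the intermediate filaments that mark reactive astrocytes. Gfap rose from 3.24, 3.95, 1.01, 13.4 and 9.83 CPM to 51.5, 99.3, 27.5, 14.3 and 17.3 CPM in the microglia libraries (2.77 ± 0.57, adjusted p = 0.0301, edgeR), where carried astrocyte RNA was estimated at 13.4 CPM after injury. In astrocytes it had 148, 185, 147, 205 and 407 CPM in sham and 717, 837, 882, 517 and 1287 CPM in FPI mice, and Sham Astro 5 stood apart from its group. The astrocyte estimate of 1.96 ± 0.53 did not pass (adjusted p = 0.191), although no library overlapped. FPI MG 1 and 2, the libraries with the most astrocyte RNA, had the highest Gfap and FPI MG 2 the highest Vim, 65.8 CPM against 13.7 to 34.9 CPM in the other FPI MG libraries. The part of astrocyte RNA in these rises was not tested. The microglia effect of Vim was 1.45 ± 0.35 (adjusted p = 0.0827) and that in astrocytes 1.21 ± 0.34 (adjusted p = 0.233). The microglia call of Vim held in 9 of the 20 fits without 1 library and in 12 of 16 other fits, and carried astrocyte RNA was estimated at 4.38 CPM of it in FPI MG, against a rise of 20.8 CPM.

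Promoters of the 12 genes nearest to a shared response were read from RefSeq windows of 250 bases before to 50 bases after the start, on GRCm38.p6, where ISREs of interferon-induced genes are known to lie. A window was in the table for 6437 of the 8463 genes and for 10 of the 12, C4b being among those without one. The letters GAAANNGAAA, the core of the ISRE, were searched on both strands. They were found in 3.489% of all 27025 symbols with a window, in 2.703% of the 6437 and in 5 of the 10, namely Stat2, Ifit3, Irgm1, Ddx58 and H2-T22. Of the 44 called genes with a window, 6 held them, the others being Ifitm3, Slfn5 and Spp1. The windows of Axl and Oasl2 held no match. A match is a description of the letters and not of a bound site. The stretches around the match are given for the 4 of these 5 genes that held it before the start, at 222 bases before it in Stat2, 156 and 122 in Ifit3, 30 and 24 in Irgm1, where the pair overlapped, and 191 in H2-T22. They lie at chr10:128270248-128270345, plus strand, at chr19:34583313-34583476, plus strand, at chr11:48871421-48871510, minus strand and at chr17:36042864-36042992, minus strand. Capitals mark the match, read on the reverse strand in all but Irgm1, each sequence running 5′ to 3′ along its gene.
Stat2: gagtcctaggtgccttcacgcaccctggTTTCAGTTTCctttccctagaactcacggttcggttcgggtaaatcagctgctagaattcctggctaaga
Ifit3: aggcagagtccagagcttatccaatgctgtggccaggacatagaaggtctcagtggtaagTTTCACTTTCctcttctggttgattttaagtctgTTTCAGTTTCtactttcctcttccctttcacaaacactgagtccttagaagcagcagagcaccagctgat
Irgm1: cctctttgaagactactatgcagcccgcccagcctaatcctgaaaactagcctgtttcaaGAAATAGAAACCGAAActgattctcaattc
H2-T22: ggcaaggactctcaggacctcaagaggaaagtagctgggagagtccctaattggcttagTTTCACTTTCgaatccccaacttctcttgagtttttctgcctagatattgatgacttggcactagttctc

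Across the interferon program the estimates were mostly larger in microglia. The list of interferon-induced genes had 40 members among the 8463. In microglia 11 of them were called up and 29 were higher at an unadjusted p below 0.05, and in astrocytes 2 were called and 11 were higher at that threshold, with none lower in either. The median effect was 0.71 in microglia and 0.35 in astrocytes, against -0.04 and -0.05 over all 8463. At an unadjusted p below 0.05, 427 of all 8463 were higher and 310 lower in microglia, and 73 higher and 106 lower in astrocytes. The difference passed it for 229 toward microglia and 121 toward astrocytes. Counts at this threshold in this and the following lists stand against these. The mean of log2(CPM + 0.5) over the list was 5.29, 5.11, 5.34, 5.34 and 5.16 in the Sham MG and 6.33, 6.18, 6.01, 5.89 and 6.34 in the FPI MG libraries. It was 3.74, 4.32, 4.18, 4.17 and 4.44 in the Sham Astro and 4.26, 4.58, 4.70, 4.63 and 5.10 in the FPI Astro libraries. The microglia groups were apart, while FPI Astro 1 fell within the sham astrocyte range and FPI Astro 5 was the highest. Differences at an unadjusted p below 0.05 favored microglia for 11 members and astrocytes for 1.

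In microglia the largest estimates of the list after Oasl2 were those of Ifit2, Ifit3, Ifitm3, Slfn5, Lgals3bp and Helz2, each called. Ifitm3, which blocks viral entry, had effects of 2.35 ± 0.54 in microglia and 1.17 ± 0.51 in astrocytes. Lgals3bp, a secreted ligand of galectins, rose from 231, 115, 206, 158 and 199 CPM to 772, 739, 484, 581 and 882 CPM (1.93 ± 0.28, adjusted p = 0.0013, edgeR). In astrocytes the effect was 0.68 ± 0.27, with overlapping groups. Slfn5 and Helz2 had microglia effects of 2.24 ± 0.48 and 1.87 ± 0.42, against 0.23 ± 0.47 and 0.59 ± 0.42 in astrocytes. Adar, which edits double-stranded RNA, went from 99.7, 111, 118, 92.7 and 102 CPM to 242, 179, 195, 169.8 and 216 CPM in microglia (0.93 ± 0.14), and its astrocyte estimate was 0.25 ± 0.14. Of the 16 receptors and signal carriers, 2 were called, both in microglia, and the median effect was 0.10 in microglia and 0.06 in astrocytes.

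Some genes of these lists had the larger estimate in astrocytes. Picked after their values were seen, as list members higher in injured astrocytes at an unadjusted p below 0.05 with a negative difference, they were 6: Irgm1, Irf9, Gbp3, Ifi27, H2-T23 and Gbp7. Gbp3, a guanylate-binding GTPase, had 47.7, 35.7, 30.8, 24.7 and 30.4 CPM in Sham MG and 32.1, 61.6, 34.9, 31.7 and 53.97 CPM in FPI MG, which overlapped. In astrocytes it had 4.77, 10.5, 11.5, 11.1 and 17.4 CPM in sham and 12.1, 28.6, 23.8, 25.1 and 54.7 CPM in FPI mice. The effect was 0.34 ± 0.33 in microglia and 1.38 ± 0.34 in astrocytes, and the difference of -1.04 ± 0.48 did not pass (edgeR adjusted p = 0.678). Ifi27, a mitochondrial interferon-induced gene, was at most 15.9 CPM in the 5 Sham Astro libraries and had 20.3, 34.5, 34.96, 29.4 and 33.3 CPM in FPI Astro, with no overlap, and in microglia 12.97, 11.3, 12.5, 9.75 and 8.89 CPM and 15.97, 5.36, 17.8, 23.1 and 17.01 CPM, with overlap. Irf9, the DNA-binding subunit of the interferon complex, had effects of 0.43 ± 0.22 in microglia and 0.92 ± 0.22 in astrocytes. All 6 intervals of the difference except that of Gbp3 held 0. FPI Astro 5, with the highest share of microglial RNA, was the highest FPI Astro library for each of the 6 but Ifi27. The part of mixed cells in these estimates was not tested. Gbp genes, like H2 genes and Ifit3, have near-identical relatives, and how reads were divided among them is uncertain.

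Most MHC class I genes, which present peptides to cytotoxic T cells, were estimated higher in both cell types, with the larger median in microglia. Of 16 members, 3 were called up in microglia, H2-K1, H2-D1 and Tap1, and none in astrocytes, where 5 were higher at an unadjusted p below 0.05. H2-K1 had 252, 206, 316, 287 and 339 CPM in Sham MG and 606, 904, 571, 601 and 795 CPM in FPI MG (1.31 ± 0.20, adjusted p = 0.00209, edgeR), against 66.2 ± 19.3 and 86.3 ± 16.3 CPM in astrocytes (0.38 ± 0.20). Tap1, the peptide transporter, rose by 0.94 ± 0.18 in microglia and was estimated at 0.57 ± 0.19 in astrocytes. The nonclassical H2-T22 was estimated at 0.84 ± 0.25 and 0.78 ± 0.26, and the interval of the difference was -0.69 to 0.81. Medians of the list were 0.40 and 0.26. No difference was called, and 2 passed an unadjusted p below 0.05, with the higher estimate in microglia. The list means of log2(CPM + 0.5) were 4.84 to 5.34 in Sham Astro. In FPI Astro they were 5.18, 5.66, 5.20, 5.21 and 5.78, so only FPI Astro 2 and 5 exceeded the sham range. Without FPI Astro 5 the astrocyte median was 0.17.

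**Figure D3:**
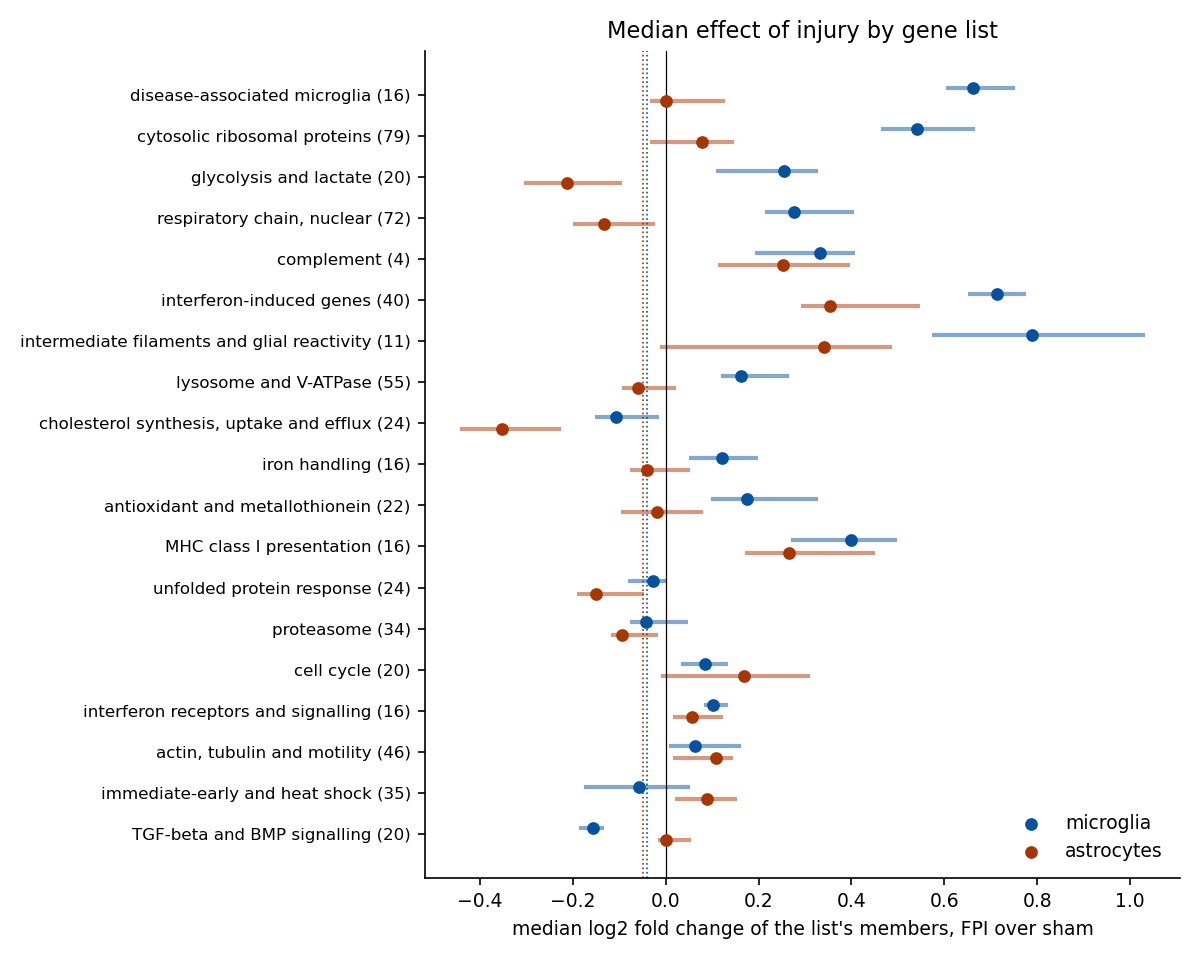
Median log2 fold change (x axis, FPI over sham) of the members of 19 gene lists in microglia (blue) and astrocytes (orange). Lists are ordered by the median difference with the number of members in parentheses, thin bars span the medians over the fits that leave out 1 library, and dotted lines mark the medians of all 8463 genes. DAM, ribosomal, glycolysis and respiratory chain genes have the largest median differences.

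The DAM list had the largest median difference of the 19 lists. It had 16 members among the 8463, of which 7 were called up in microglia and 14 were higher at an unadjusted p below 0.05, with none past that threshold in astrocytes. The median effect was 0.66 in microglia and 0.00 in astrocytes. Per library, the mean of log2(CPM + 0.5) over the list was 7.76, 7.58, 7.80, 7.71 and 7.998 in Sham MG and 9.10, 8.97, 8.47, 8.52 and 8.81 in FPI MG. The astrocyte libraries gave 7.61, 7.36, 7.20, 7.29 and 7.19 in sham and 7.57, 7.60, 7.19, 7.32 and 7.41 in FPI mice, with full overlap. Besides Axl and Apoe, the called members were Ctsb, Spp1, Csf1, Cd63 and Fth1. Ctsb, a lysosomal protease, rose from 1549, 1310.2, 1645, 1484 and 1633 CPM to 2909, 3243, 2005, 2539 and 3254 CPM (0.87 ± 0.16, adjusted p = 0.0123, edgeR), and stood at 327 ± 58.02 and 354 ± 45.3 CPM in astrocytes (0.12 ± 0.16). Spp1, the secreted phosphoprotein osteopontin, had 3.87, 4.68, 3.91, 4.76 and 30.4 CPM in Sham MG and 202, 155, 20.2, 22.1 and 80.6 CPM in FPI MG. Sham MG 5 was within the injured range, so that the groups overlapped despite an effect of 3.39 ± 0.71 (adjusted p = 0.0339). In astrocytes Spp1 had an estimate of 1.36 ± 0.67, and the interval of the difference ran from 0.06 to 3.99. Csf1, the growth factor that microglia depend on, had effects of 1.26 ± 0.31 and -0.07 ± 0.30.

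Lysosomal genes had smaller effects. Of 55 members, 3 were called up in microglia, Ctsb, Cd63 and Grn, and 13 were higher and 2 lower at an unadjusted p below 0.05. In astrocytes 1 was higher at that threshold. Grn, the lysosomal growth factor progranulin, rose from 1392, 1174, 1295, 1383 and 1636 CPM to 2436, 2296, 1644, 2229 and 3079 CPM (0.76 ± 0.19, adjusted p = 0.0907, edgeR) and was estimated at 0.02 ± 0.19 in astrocytes. Cd63, a tetraspanin of late endosomes, had effects of 0.73 ± 0.17 and -0.00 ± 0.17, and the interval in astrocytes was -0.36 to 0.36. Of 16 iron genes, 2 were called in microglia, the ferritin chains Ftl1 (0.79 ± 0.18) and Fth1 (0.87 ± 0.22), against 0.21 ± 0.18 and 0.06 ± 0.22 in astrocytes. Fth1 had 468, 459, 480.02, 417 and 494 CPM in Sham MG and 937, 915, 613, 762 and 1021 CPM in FPI MG, without overlap. In astrocytes its sham libraries alone spanned 467 to 1098 CPM.

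Ribosomal protein genes were estimated higher together in injured microglia. All but 1 of the 79 members had a positive difference, and 23 passed an unadjusted p below 0.05, each with the larger effect in microglia. In microglia 65 were higher at that threshold and 5 were called, while in astrocytes none passed. The median effect was 0.54 in microglia and 0.08 in astrocytes. Per library, the mean of log2(CPM + 0.5) was 6.76, 6.76, 6.66, 6.86 and 7.02 in Sham MG and 7.12, 7.56, 6.88, 7.47 and 7.60 in FPI MG. In astrocytes it was 5.40, 5.68, 5.32, 5.41 and 5.62 in sham and 5.14, 5.61, 5.39, 5.52 and 6.00 in FPI mice. FPI MG 3 fell within the sham range, and the genes of the block share libraries, so they do not count as separate observations. Rps2 had 66.7, 80.5, 70.8, 84.1 and 98.5 CPM in Sham MG and 119.6, 167, 102, 149 and 177 CPM in FPI MG (0.84 ± 0.18, adjusted p = 0.0495, edgeR), against 50.5 ± 8.66 and 58.1 ± 14.03 CPM in astrocytes. Rpl37, Rpl19 and Rpsa were also called, at 0.94, 0.76 and 0.73 in microglia and at 0.21, 0.07 and 0.21 in astrocytes. These genes have many processed pseudogenes, and reads shared with them make the level of a single gene uncertain.

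Energy genes had medians above 0 in microglia and below 0 in astrocytes, with 1 call. Of 72 nuclear genes of the respiratory chain, 14 were higher in microglia and none in astrocytes at an unadjusted p below 0.05, and 13 differed at that threshold, all with the larger estimate in microglia. The medians were 0.28 and -0.13. The astrocyte groups overlapped, with list means of log2(CPM + 0.5) of 4.79 to 5.50 in sham and 4.83 to 5.29 in FPI mice, and without Sham Astro 2 the astrocyte median was -0.02. The called member was Cox4i1, with 49.9, 58.6, 42.5, 67.1 and 69.4 CPM in Sham MG and 96.7, 108, 58.5, 104 and 117 CPM in FPI MG (0.75 ± 0.18, adjusted p = 0.0801, edgeR). Its lowest injured library, FPI MG 3, lay within the sham range. In astrocytes it stood at 112 ± 23.3 CPM in sham and 98.02 ± 5.93 CPM in FPI mice. Of 20 genes of glycolysis, 4 were higher in microglia at an unadjusted p below 0.05, Pkm, Gpi1, Pgk1 and Pfkfb3, and none was called. The 20 had medians of 0.25 in microglia and -0.21 in astrocytes, and a positive difference for each. Without FPI MG 1 the median in microglia was 0.11. Pyruvate kinase Pkm, the last step of glycolysis, was estimated at 0.43 and -0.08 (difference 0.51, unadjusted p = 0.00629, edgeR).

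**Figure D4:**
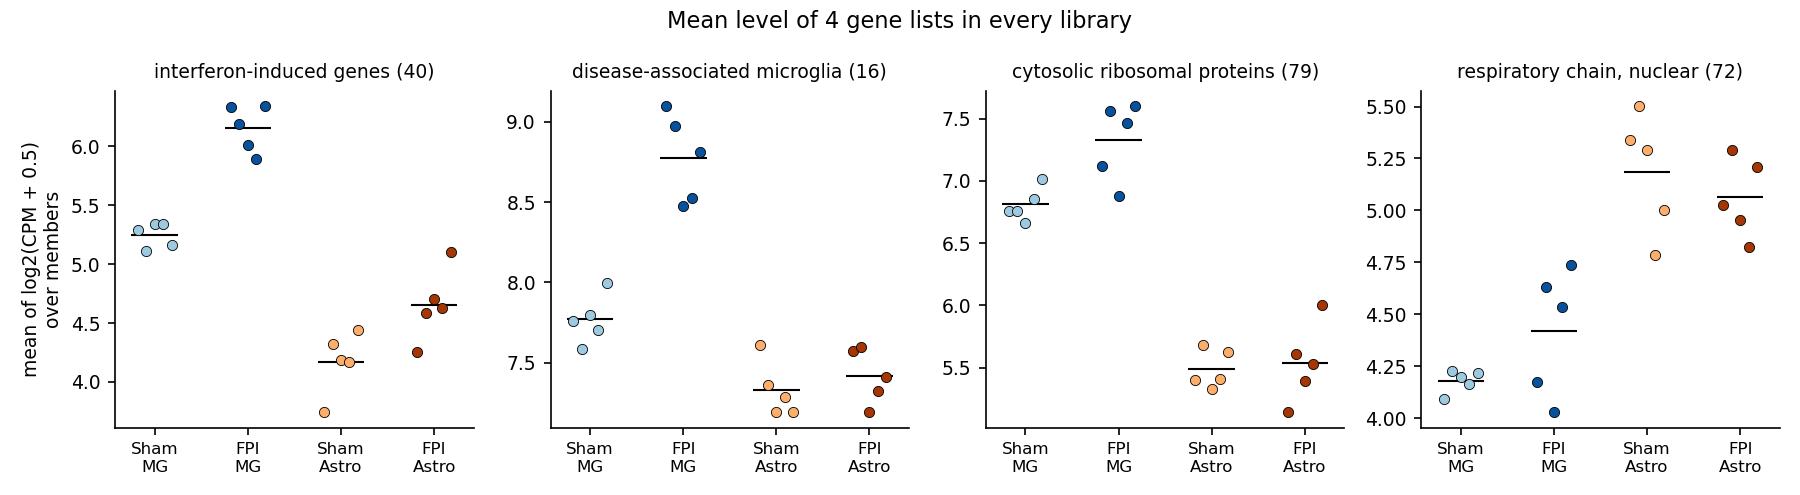
Mean of log2(CPM + 0.5) over the members of 4 gene lists (y axis, own range per panel, not starting at 0) in every library, by group. Points are libraries and lines are group means. Interferon-induced and DAM genes separated the microglia groups completely, while FPI MG 3 stayed in the sham range for ribosomal genes and FPI MG 1 and 3 did not exceed it for respiratory chain genes.

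Cholesterol genes had their lower estimates in astrocytes. Of 24 members of synthesis, uptake and efflux, 5 were lower in astrocytes at an unadjusted p below 0.05, and none was called there. Cyp51, Sc4mol, Dhcr7 and Srebf2 were among them, with astrocyte estimates from -0.74 for Sc4mol, an enzyme of sterol demethylation, to -0.37 for Srebf2, the regulator of the pathway. In microglia these 4 genes lay between -0.24 for Dhcr7 and 0.12 for Cyp51. The median was -0.35 in astrocytes and -0.11 in microglia, where Apoe was the called member. List means of log2(CPM + 0.5) were 6.59 to 7.19 in Sham Astro and 6.31 to 6.90 in FPI Astro, with overlap. FPI Astro 5 was the lowest, and without it the astrocyte median was -0.23. The list of TGF-beta and BMP signalling, a pathway that holds microglia in their resting state, showed the reverse order. Of 20 members, 3 were lower in microglia at an unadjusted p below 0.05, against 310 of all 8463. They were Smad2, Smad3 and Smurf1. In astrocytes 2 were higher at that threshold, Tgfb1 and Skil, against 73 of all 8463. Activity of the pathway itself was not measured. The signal carrier Smad3 was estimated at -0.46 in microglia and 0.26 in astrocytes (difference -0.72, unadjusted p = 0.0127, edgeR). The difference was negative for all but 3 of the 20, and no member was called.

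Of 11 genes of intermediate filaments and glial reactivity, 3 were called in microglia, Gfap, Vim and Anxa5, with medians of 0.79 in microglia and 0.34 in astrocytes. Without FPI Astro 5 the astrocyte median was -0.01, and over the fits without 1 library the median difference ran from -0.06 to 0.48. Of 4 complement genes, C4b was the 1 called in both. The lists of 35 immediate-early and heat shock genes, 24 genes of the unfolded protein response, 22 antioxidant genes, 34 proteasome subunits, 46 genes of actin, tubulin and motility and 20 of the cell cycle had no called member in any contrast. Their medians lay between -0.06 and 0.17 in microglia and between -0.15 and 0.17 in astrocytes. At an unadjusted p below 0.05, 4 genes each of motility and of the cell cycle were higher in microglia, against 427 of all 8463. In astrocytes 4 and 1 were higher, against 73 of all 8463.

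Called genes outside the lists included Fyn, Sdc3 and Myo1e. Fyn, a Src family kinase, rose in microglia from 13.7, 18.4, 16.3, 20.97 and 16.8 CPM to 39.7, 37.4, 30.3, 35.2 and 26.2 CPM (0.97 ± 0.17, adjusted p = 0.0072, edgeR). In astrocytes 4 of the 5 FPI libraries, at 112 to 121 CPM, lay within the sham range of 106 to 129.6 CPM, and FPI Astro 5 was at 194 CPM. Carried astrocyte RNA was put at 2.095 CPM of Fyn in FPI MG. Sdc3, a heparan sulfate proteoglycan, had effects of 1.47 ± 0.27 in microglia (adjusted p = 0.0113) and 0.38 ± 0.27 in astrocytes, and Myo1e, a motor protein of the membrane skeleton, of 1.30 ± 0.24 and 0.05 ± 0.24. The 4 genes called down in microglia were Lzts3, Zfp324, 0610009O20Rik and Slc25a12. Slc25a12, a mitochondrial aspartate and glutamate carrier, fell from 25.3, 19.3, 20.8, 23.5 and 23.8 CPM to 17.5, 11.8, 14.3, 15.1 and 15.1 CPM (-0.61 ± 0.15, adjusted p = 0.0933). This call held in 2 of the 20 fits without 1 library and in 3 of 16 other fits. Its astrocyte estimate was -0.29 ± 0.15, in the same direction, and the interval of the difference, -0.76 to 0.13, held 0.

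Few responses were opposite. No gene was called in both cell types with opposite signs. At an unadjusted p below 0.05 in both, 3 genes had opposite signs, against 0.0531% of all genes tested, whereas 22 were higher and 7 lower in both, against 0.57% of all genes tested for the same sign. Sipa1l1, a regulator of Rap GTPases, had 199.99, 217, 160.4, 188 and 199.7 CPM in Sham MG and 133, 123, 183, 136 and 140.4 CPM in FPI MG. In astrocytes it had 27.2, 26.3, 15.4, 15.9 and 27.6 CPM in sham and 30.5, 24.002, 27.9, 37.97 and 42.4 CPM in FPI mice. The groups overlapped in both cell types, in microglia through FPI MG 3, which kept a sham level. The effects were -0.43 ± 0.19 (adjusted p = 0.413, edgeR) and 0.53 ± 0.19 (adjusted p = 0.794). Helb, a DNA helicase, went the other way, with 11.6, 18.6, 19.8, 20.2 and 13.99 CPM in Sham MG and 23.2, 24.9, 27.4, 31.2 and 12.7 CPM in FPI MG, against 15.4, 15.4, 23.2, 18.5 and 16.8 CPM in Sham Astro and 12.96, 12.6, 9.08, 11.4 and 15.6 CPM in FPI Astro. Its effects were 0.50 ± 0.23 and -0.53 ± 0.23, and FPI MG 5 lay in the sham range. Smg8, a subunit of the kinase complex of nonsense-mediated decay, had effects of -0.45 ± 0.21 in microglia and 0.48 ± 0.22 in astrocytes, with overlap in both. None of these 3 had a called difference, their adjusted p being 0.245, 0.39 and 0.444.

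**Figure D5:**
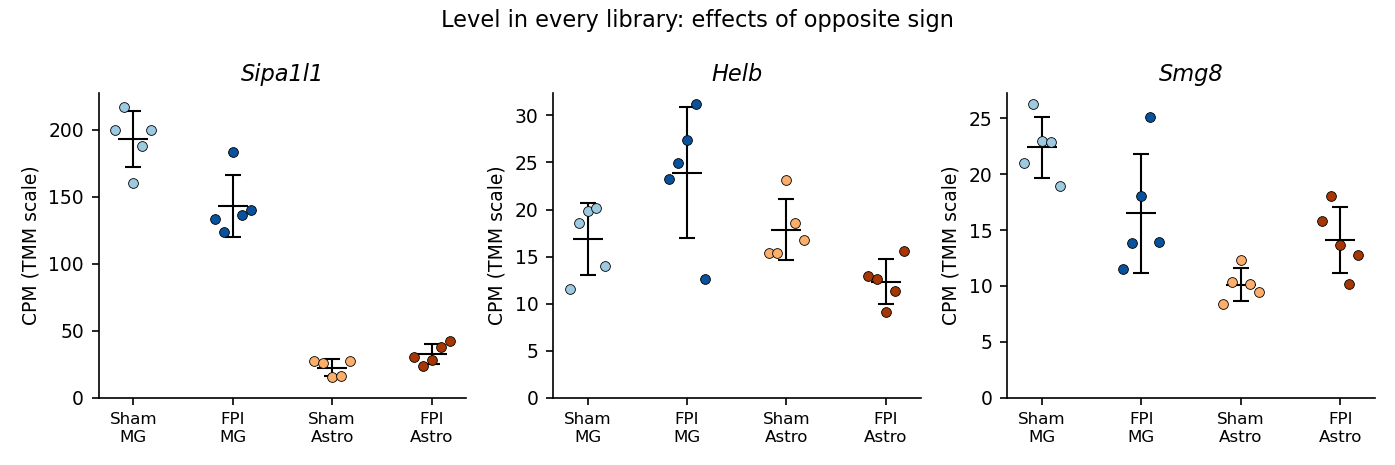
Level of Sipa1l1, Helb and Smg8 in every library, in CPM on the TMM scale (y axes start at 0), by group, with the mean and SD of 5 libraries as bars. The groups overlap in both cell types for all 3 genes.

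The next nearest to an opposite response were P2rx4, Ten1, Ndufs1, Gm25679 and Xylt2, estimated higher in microglia and lower in astrocytes, and 2310011J03Rik, Zfp46, Stk35 and 2310047M10Rik, estimated the other way. The larger of their 2 unadjusted p values lay between 0.0526 and 0.101 (edgeR). Ten1, a subunit of the telomere capping complex, had 6.63, 8.17, 8.14, 8.61 and 8.07 CPM in Sham Astro and 6.28, 4.88, 2.74, 5.62 and 4.47 CPM in FPI Astro, which did not overlap, and 7.98, 12.4, 8.95, 10.2 and 10.2 CPM in Sham MG and 13.4, 13.6, 10.8, 11.1 and 22.4 CPM in FPI MG, which did. Its effects were -0.72 ± 0.26 in astrocytes and 0.52 ± 0.25 in microglia, and the difference of 1.24 ± 0.36 did not pass (adjusted p = 0.29). Gm25679, a small nuclear RNA of a multicopy family, ranged from 3.41 to 42.4 CPM within Sham Astro alone, and its difference of 3.55 ± 1.19 had the widest interval of the genes named here, 1.09 to 6.02.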

How the data were processed

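RNA-seq of sorted microglia and astrocytes was read from the table of gene counts that the authors deposited for the 20 libraries. Per the labels and the study's methods, the authors made stranded total RNA libraries. The submitters' processing notes name bcl2fastq, HISAT2 2.1.0 and featureCounts, which counts aligned reads per gene, with mm10 and GRCm38.p6. For its own tests of expression, the paper describes another route, gene counts estimated by tximport from salmon abundances. Counts were used as deposited. Because they are raw, depth sets the precision of low genes, and reads of near-identical genes cannot be divided with certainty.

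Genes passing filterByExpr were fitted jointly in edgeR 4.0.16 (R 4.3.3) with TMM factors, a mean per group of cell type and condition, and the quasi-likelihood F test. P values were adjusted by Benjamini-Hochberg over all genes tested. Levels are CPM on the TMM scale, while the rule of 5 CPM used counts over library totals. The code of the fit was run on simulated counts of independent libraries, which does not measure its power in these data. Carry-over was the median over 10 markers of the level in the other cell type, in percent. Named genes were the called differences, filled to 10 in each direction by p, up to 12 shared genes by the larger p of both effects, 6 in each orientation of opposite sign, up to 5 further calls by cell type and direction, up to 4 calls of each list, and the 3 genes nearest to the level minimum on either side. The members and lists were chosen with earlier results of these data known. DESeq2 1.42.0, limma 3.58.1 and other filters, scalings, terms and left-out libraries were tried as alternatives. Some genes that met these rules are counted but not reported here by name.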

Additional observations from a re-analysis of the deposited data

Results flagged for a closer look

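Among 252 groups of 5 libraries for the named genes, 18 held a library far from the other 4 by Dixon's criterion, which chance gives in about 1 of 20 groups. In microglia these were Sham MG 2 at 23.5 CPM for Axl and 35.4 CPM for P2rx4, both the lowest of the group, Sham MG 4 at 7.37 CPM for Mblac2 and Sham MG 5 at 30.4 CPM for Spp1. FPI MG 3 stood apart at 165 CPM for Npc2, 183 CPM for Sipa1l1 and 8.90 CPM for Lzts3, each on the side of the sham level, and FPI MG 5 at 22.4 CPM for Ten1 and 15.9 CPM for 2310011J03Rik. In Sham Astro they were replicate 1 at 6.63 CPM for Ten1, replicate 3 at 10.01 CPM for Lzts3 and 156 CPM for Rnf213, and replicate 5 at 101 CPM for Zcchc14 and 407 CPM for Gfap. FPI Astro 5 was the highest of its group at 48.5 CPM for Oasl2, 35.3 CPM for Irgm1, 207 CPM for Rnf213 and 194 CPM for Fyn. The effect of FPI on Axl differed between microglia and astrocytes by 2.48 on the log2 scale, by a test of the difference itself.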

How the results depend on the processing

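Of the 8463 genes, 1 differed, 56 were called in microglia, 3 in astrocytes, 2 were shared, 3 opposite and 1 one-sided. In that order DESeq2 gave 24, 172, 15, 7, 6 and 18, and the fit without astrocyte libraries sharing a number with microglia gave 16, 64, 64, 4, 29 and 8. Without microglia replicates 4 and 5 the difference was called for 4, microglia for 30, opposite for 5 and one-sided for 4, and a term for them gave 3 differences, all 3 one-sided. A term for astrocyte replicates 4 and 5, chosen after seeing the data, gave 6 differences, 88 microglia and 5 astrocyte calls and 5 one-sided genes. Keeping every gene with a count gave 2 differences, 37 microglia calls and 2 one-sided genes. Genes under 4-fold apart in sham gave 0 differences and 0 one-sided genes. Microglia calls were 170 with each cell type fitted alone, 10 without microglia libraries sharing a number (1 opposite), 34 at 20 CPM (1 astrocyte, 1 shared, 1 opposite) and 27 at an adjusted p below 0.05 (1 astrocyte, 1 shared). Astrocyte calls were 6 with RLE factors, 7 with TMM factors from the 8463 genes, 1 with FPI Astro 2 and 5 summed (1 shared), 1 in limma-voom (0 shared), and 0 with only the 8463 genes fitted or each cell type alone (0 shared in both). Shared genes were 1 with robust empirical Bayes and 1 at 10 CPM.

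Without 1 library, differences ran from 1 to 5, microglia calls from 22 to 145, astrocyte calls from 0 to 9, shared genes from 0 to 4, opposite from 0 to 6 and one-sided from 1 to 5. Microglia calls were 145 without FPI MG 3, and 31, 24 and 33 without FPI MG 1, 2 and 5, and 28, 22, 27 and 31 without Sham MG 1, 2, 3 and 4. The replicate block gave 2 differences, Axl and Apoe (2.54 for Apoe, edgeR adjusted p = 0.0265), 100 microglia and 5 astrocyte calls and 2 one-sided genes. Replicate numbers name no shared animal between conditions. Deviations of same-numbered libraries correlated at -0.091 to 0.072 in microglia and at 0.059 to 0.577 in astrocytes, not above 0.1 for every pair. Of 2202 values of the difference for named genes, 2163 stayed on their side of the threshold. Only Axl of the 63 named genes had a called difference, so for the rest this meant staying uncalled. Of the 2163, 48 turned sign by less than their standard error, in 6 genes. Another 38 values newly passed the threshold, and the difference of Ddx58 turned to -0.28 without astrocyte libraries sharing a number. Effect calls changed more often. The 38 named genes called in microglia kept that call in 585 of 760 values without 1 library and in 524 of 607 others, and the 3 called in astrocytes in 46 of 60 and 31 of 48. The causes were not tested. Counting depth limits genes near 5 CPM most.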
